A study of Mus musculus with 76 samples.

Results

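The genes described here are the enzymes and binding proteins that write, erase and read DNA methylation and histone marks, the Polycomb group among them. They were chosen by name: every row of the table whose symbol begins with Dnmt, Tet1, Tet2, Tet3, Kdm, Kmt, Hdac, Sirt, Cbx or Ezh, with Eed, Suz12, Bmi1, Rnf2, Ring1, Jarid2, Asxl1, Dot1l, Men1 and Setdb1 added. This gave 61 of the 15192 genes in the table, 51 by family name and 10 added singly. The material was 76 sorted mouse cells, sequenced one by one and named iHPCs in the labels: blood progenitors that engraft, obtained in culture from pluripotent stem cells in which Runx1, Hoxa9 and Hoxa10 are induced together. All cells form 1 group, with no control. The labels name no strain, clone, culture, day or sorting gate, and no promoter for the introduced factors. The name of the deposited table ends in D21, which the labels do not explain. Cells are not replicates, so the group counts as 1 sample and no test or standard error was made from cells.

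DNA methyltransferases place methyl groups on cytosine: Dnmt1 copies the pattern after replication, Dnmt3a and Dnmt3b set new marks, and the Tet dioxygenases oxidise them. Polycomb repressive complex PRC2 methylates lysine 27 of histone H3 through Ezh1 or Ezh2, with Eed and Suz12 as its core partners. PRC1 ubiquitinates histone H2A through Rnf2 or Ring1 and is brought to PRC2-marked chromatin by Cbx proteins. In blood stem cells, loss or mutation of several of these genes (Dnmt3a, Tet2, Asxl1, Ezh2) is known to alter self-renewal or differentiation.

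Values are TPM, which are scaled for transcript length and sum to 1000000 in each cell, so depth is unknown. Detection in a cell means a value of at least 1 TPM. The cells had 2465 to 5992 genes each (median 4182.5). All 12 markers common to blood cells were detected in at least 38 cells. Of 5 pluripotent cell markers analysed, Pou5f1, Lin28a, Esrrb and Tdgf1 were in 0 cells and Dppa5a in 1. Of 7 endothelial markers, Egfl7 was in 73 cells, Eng in 37, Pecam1 in 24, Plvap in 18, Esam in 4, and Kdr and Tek in 0. Of 4 stromal ones, Pdgfrb was in 22 cells, Sparc in 2, and Col1a1 and Col1a2 in 0. Listed zeros may be failed capture, since Polr2a and Tbp, which every cell uses, were detected in only 22 and 36 cells.

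Of the 61 genes, 60 were detected in at least 1 cell and 17 in at least 38 of the 76 cells (27.9%). Over all genes of the table, 23.1% reached that number of cells, so the share among the chromatin modifiers lay near the background. At 10 TPM the count was 12 of 61, and 19.8% of all genes reached 38 cells. The median gene of the set was detected in 20 cells and the median gene of the table in 11. Hdac11, a class IV deacetylase gene that shares 26.01% of its exon bases with the opposite-strand Gm44002, was at 0 in every cell, which allows up to 3.95% of cells with a detected transcript (3 counts of 76) and sets no limit on cells that express the gene; among all genes analysed, 18.8% were detected in no cell. A cell held a median of 21 of the 61 genes (range 8 to 36), which made up 0.505% of the genes it had (0.325 to 0.657%). The count per cell followed the number of genes detected (rho 0.82 over 76 cells), and its median was 16.5 and 17 in cells with title numbers 10 and 11, against 19.5 to 25 for the numbers 2 to 9. Summed, the 61 genes made up 0.130 to 0.421% of the TPM of a cell (median 0.253%). Hdac1, Sirt3, Cbx3, Hdac2 and Sirt7 together held 54.4% of that sum over all cells.

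**Figure D1:**
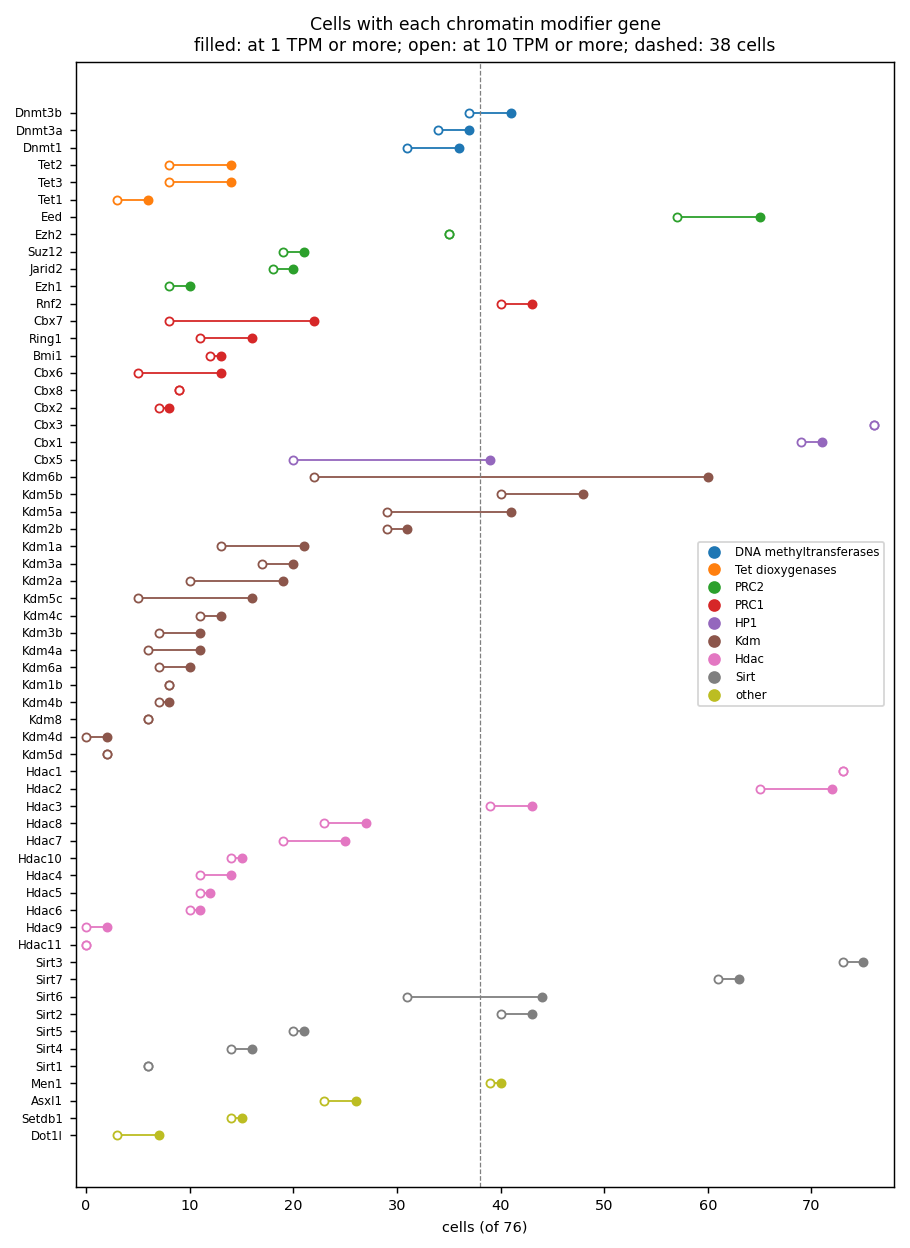
Number of cells (x axis, of 76) in which each of 60 genes (y axis, grouped and coloured by family) reached 1 TPM (filled) or 10 TPM (open). Cbx3, Sirt3, Hdac1, Hdac2 and Cbx1 were each in over 70 cells, while most genes lie left of the dashed line at 38 cells and Kdm6b moves farthest between the thresholds, with 60 cells at 1 TPM and 22 at 10 TPM.

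The 3 DNA methyltransferase genes were each detected in about as many cells. Dnmt3b (chr2:153649411-153687730, RefSeq, GRCm38.p6) was in 41 cells (53.9%, exact Clopper-Pearson 95% interval 42.1 to 65.5%, which covers the counting of cells only). Its level ran from 0 to 182 TPM with a median of 7.61 TPM. Dnmt3a was in 37 cells, with 0 as its lowest, 0.728 as its median and 164 TPM as its highest value. Dnmt1 (chr9:20907206-20959888) was in 36 cells, with values from 0 to 301 TPM and a median of 0.342 TPM. The typical cell with a transcript was thus far above the typical cell overall: the median over cells with detection was 68.2 TPM for Dnmt3b, 36.5 TPM for Dnmt3a and 39.2 TPM for Dnmt1. Dnmt3b is a gene known to be high in pluripotent cells, and its cells reached 10 TPM in 37 cases, whereas 4 of the 5 pluripotent markers analysed were detected in no cell.

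The methyltransferases were found in several combinations. All 3 were detected in 13 cells and none in 13. Dnmt1 with Dnmt3b and without Dnmt3a was found in 14 cells, while Dnmt1 with Dnmt3a and without Dnmt3b was found in 3. Dnmt1 and Dnmt3b shared 27 cells, which is 75% of the cells with Dnmt1 and 65.9% of those with Dnmt3b. Dnmt1 and Dnmt3a shared 16 cells, 44.4% of the cells with Dnmt1 and 43.2% of those with Dnmt3a. Across the cells, the rho was 0.26 for Dnmt1 with Dnmt3b and 0.050 for Dnmt1 with Dnmt3a. Dnmt1, Dnmt3b and Dnmt3a each rose with the number of genes detected (rho 0.37, 0.34 and 0.21). Whether a pair shared more cells than its detection alone would give was not tested. Between the de novo pair, Dnmt3a was the higher in 28 cells and Dnmt3b in 38. Either de novo enzyme gene was in 57 cells (75%, interval 63.7 to 84.2%). The Tet genes were sparse: Tet2 and Tet3 were in 14 cells each and Tet1 in 6, with highest values of 33.8, 37.02 and 17.04 TPM. Tet2 was above Tet3 in 17 cells and below it in 15, and both were at 0 in 44. At least 1 Tet gene was in 28 cells and at least 2 in 5. Dnmt3l, a cofactor gene of de novo methylation, was not analysed here, nor was Ezhip, a PRC2 inhibitor gene.

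Within PRC2, detection differed widely between subunit genes. Eed (chr7:89954654-89980976), whose protein binds the methylated lysine, was in 65 cells (85.5%, 75.6 to 92.5%), with values from 0 to 516 TPM and a median of 129 TPM. At 10 TPM it was in 57 cells (75%), outside that interval. Ezh2 (chr6:47530274-47595270), the catalytic subunit of dividing cells, was in 35 cells (46.1%, 34.5 to 57.9%), all of them at 10 TPM or more, with a median of 0.664 and a highest value of 256 TPM. Its paralog Ezh1 was in 10 cells. Ezh2 was the higher of the pair in 39 cells and Ezh1 in 8, while 29 cells had 0 for both, and Ezh2 held 84.0% of the TPM summed over both genes. Suz12, which holds the complex together, was in 21 cells and the accessory gene Jarid2 in 20. A complete core, that is Eed and Suz12 with Ezh1 or Ezh2, was detected in 13 cells (17.1%, 9.43 to 27.5%). Eed shares 12.6% of its exon bases with an opposite-strand gene, and whether the counting used strand is not given in the sources used here. It was the only core gene detected in 23 cells, and 6 cells had none. Of the 20 cells with Jarid2, 16 also had Ezh2 (80.0%), which is 45.7% of the cells with Ezh2. Ezh2 and Jarid2 both rose with the number of genes detected (rho 0.38 and 0.19). Whether they shared more cells than their detection alone would give was not tested. The rho was 0.41 for Ezh2 with Jarid2 but 0.11 for Ezh2 with Suz12. Eed had a rho of 0.039 with Ezh2 and -0.020 with Suz12.

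PRC1 genes were mostly rare. Rnf2, which encodes the main ubiquitin ligase of the complex, was in 43 cells (56.6%) with a median of 29.1 and a highest value of 693 TPM, and its paralog Ring1 was in 16. Rnf2 was the higher of the pair in 56 cells (73.7%) and Ring1 in 5, with values under 1 TPM compared too. With values under 10 TPM set to 0, Rnf2 was the higher in 52.6% of cells. Bmi1, a partner of the ligase known for its part in blood stem cell self-renewal, was in 13 cells, 12 of them at 10 TPM. Among the Cbx genes of PRC1, Cbx7 was in 22 cells, Cbx6 in 13, Cbx8 in 9 and Cbx2 in 8. Cbx7, whose protein is linked to self-renewal of blood stem cells, fell to 8 cells at 10 TPM. Cbx7 was above Cbx8 in 22 cells (28.9%) and below it in 12, but in 9.21% of cells with values under 10 TPM set to 0, and it held 25.1% of the TPM summed over both genes.

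The heterochromatin protein HP1 genes, which belong to the same Cbx gene name but bind methylated lysine 9 of histone H3, behaved differently from one another. Cbx3 (HP1 gamma; chr6:51470154-51483704) was in all 76 cells, with a lowest value of 38.7, a median of 249 and a highest value of 485 TPM. Cbx1 (HP1 beta) was in 71 cells, with 0, 130 and 559 TPM as its lowest, median and highest values. Cbx5 (HP1 alpha) was in 39 cells, only 20 of them at 10 TPM, with a median of 1.73 and a highest value of 55.5 TPM. Cbx3 was above Cbx5 in 76 cells and above Cbx1 in 58 (76.3%), and at least 2 times above Cbx1 in 47.4% of cells. RefSeq annotates 6 pseudogenes of Cbx3 and 1 of Hdac1, none with a row of its own, so reads from such copies may be counted with those genes.

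**Figure D2:**
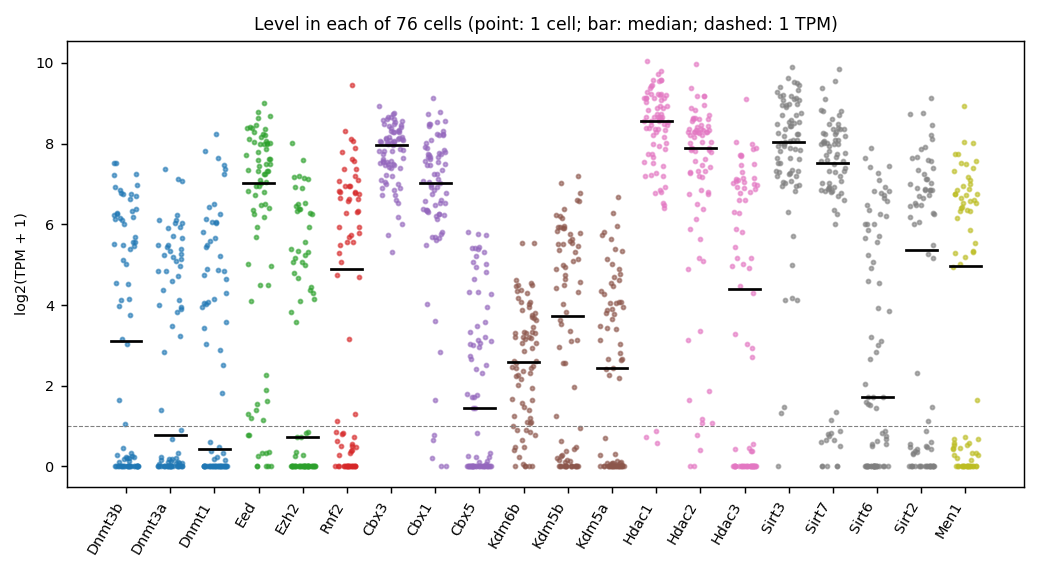
Level of 20 genes in each cell on the log2(TPM + 1) scale (y axis; points are the 76 cells, bars their medians, the dashed line 1 TPM). Cbx3 is the gene with no cell near 0; Dnmt1, Ezh2 and Hdac3 have many cells at 0 and others well above, and Kdm6b spreads at low values.

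The lysine demethylases were led by Kdm6b, Kdm5b and Kdm5a. Kdm6b (chr11:69398508-69420367), which removes methyl groups from lysine 27, was in 60 cells (78.9%, 68.1 to 87.5%) but low, with a median of 4.98 and a highest value of 45.3 TPM, and in 22 cells at 10 TPM. Its X-linked paralog Kdm6a was in 10 cells. Kdm6a was the higher of the pair in 8 cells and Kdm6b in 63. Kdm5b (chr1:134560178-134632878) and Kdm5a, which act on methylated lysine 4, were in 48 and 41 cells with medians of 12.3 and 4.39 TPM. Kdm5a was the higher of these in 24 cells and Kdm5b in 45. The other 14 Kdm genes were in 2 to 31 cells. Kdm2b, which recruits a variant PRC1 to CpG islands, was in 31 cells. Its exons share 16.2% of their bases with other genes, mainly the opposite-strand Rnf34, so part of its value may belong to a neighbour. Kdm1a, a flavin-dependent enzyme needed in blood cell differentiation, was in 21 cells. Of these, 6 had title numbers 2 to 6 (37 cells) and 15 the numbers 7 to 11 (39 cells). Kdm1a was above its paralog Kdm1b in 22 cells and below it in 11. The testis-biased Kdm4d was in 2 cells, both under 10 TPM. The Y-linked Kdm5d was in 2 cells, with 73.4 TPM as its highest value. Its X-linked paralog Kdm5c was in 16 cells and the higher of the pair in 19, against 2 for Kdm5d. Other Y-linked genes were sparse too, Eif2s3y in 11 cells, Uty in 3 and Ddx3y in 0, and Xist was in 1.

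No row carried a Kmt symbol, but all 8 Kmt genes of RefSeq matched a row under an older symbol. Kmt2e (row Mll5) was in 60 cells (median 30.4, maximum 266 TPM). Kmt2d (row Mll2, which RefSeq lists as an older name of Kmt2b also; that gene has the row Wbp7) was in 42 cells, but in only 4 at 10 TPM. Kmt5c (row Suv420h2) was in 41, Kmt5a (row Setd8) in 31, Kmt2a (row Mll1) and Kmt2c (row Mll3) in 14 each, Kmt2b in 10 and Kmt5b (row Suv420h1) in 7 cells. Between the row Mll1 and the row Mll2, Mll1 was higher in 11 cells and Mll2 in 46. Kdm7a (row Jhdm1d) was in 3 cells. Men1, whose protein menin is a cofactor of Kmt2a, was in 40 cells (median 30.5, maximum 490.5 TPM). Asxl1, a cofactor of the H2A deubiquitinase, was in 26 cells, the lysine 9 methyltransferase gene Setdb1 in 15 and the lysine 79 methyltransferase gene Dot1l in 7.

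Among the deacetylases, detection followed class only in part, with Hdac8 of class I (27 cells) near Hdac7 of class IIa (25). Most of the class I genes act in nuclear corepressor complexes. Of this class, Hdac1 (chr4:129516104-129542646) was in 73 cells (96.1%, 88.9 to 99.2%), all at 10 TPM or more. Its lowest value was 0.501, its median 379 and its highest 1056 TPM. Hdac2 was in 72 cells, with 0, 235 and 1003 TPM as lowest, median and highest values. Hdac1 was the higher of the pair in 58 cells (76.3%) and Hdac2 in 18, but Hdac1 was at least 2 times higher in only 40.8% of cells, and no cell had both at 0. Hdac3, the enzyme of the Ncor complexes, was in 43 cells (median 20.01 TPM), and Hdac8 in 27. All 4 class I genes were detected in 18 cells, and 0 of 76 cells lacked the whole class. Of the class IIa genes, which shuttle between nucleus and cytoplasm, Hdac7 was in 25 cells, Hdac4 in 14, Hdac5 in 12 and Hdac9 in 2, and at least 1 of them was in 39 cells. The class IIb genes Hdac10 and Hdac6 were in 15 and 11 cells.

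The sirtuins, NAD-dependent deacylases, split into frequent and rare genes. Sirt3 (chr7:140863663-140882309), the main mitochondrial deacetylase, was in 75 cells, and its values had 263 TPM as median and 951 TPM as maximum. Its exons share 12.4% of their bases with those of Psmd13, so part of its value may belong to that gene. Sirt7, a nucleolar enzyme, was in 63 cells (median 184, maximum 917 TPM). Sirt6 was in 44 cells (31 at 10 TPM) and the mainly cytoplasmic Sirt2 in 43, with medians of 2.31 and 40.4 TPM. The other mitochondrial members, Sirt5 and Sirt4, were in 21 and 16 cells. Sirt1, the most studied member of the family, was in 6 cells. Sirt1 was higher than Sirt2 in 3 cells and Sirt2 higher than Sirt1 in 52. Sirt2 was above Sirt7 in 17 cells and Sirt7 above Sirt2 in 57.

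The order of levels between genes moved with transcript length. Over the 57 members detected in at least 5 cells, the median TPM in cells with detection correlated with the length of the longest GENCODE M21 coding transcript at rho -0.76; over 8801 genes of the table it did so at -0.64. These are correlations across genes, which are not independent replicates. TPM is scaled for transcript length and the median takes only cells at 1 TPM or more, so a fall with length can come from the measure itself. How much of it does was not tested. The 17 members in at least 38 cells had a median transcript length of 2117 bases and the other 44 one of 4660.5 bases. Cells detected and length correlated at -0.31 in the members and -0.21 in the table. Tet1 has the longest transcript (14369 bases, 6 cells), while Kdm5a was in 41 cells with 10944 bases. The share of length in the paralog comparisons above was not tested; in Cbx3 and Cbx5 the lengths are 1889 and 8803 bases, in Ezh2 and Ezh1 2787 and 4207, in Hdac1 and Hdac2 2038 and 3250.

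**Figure D3:**
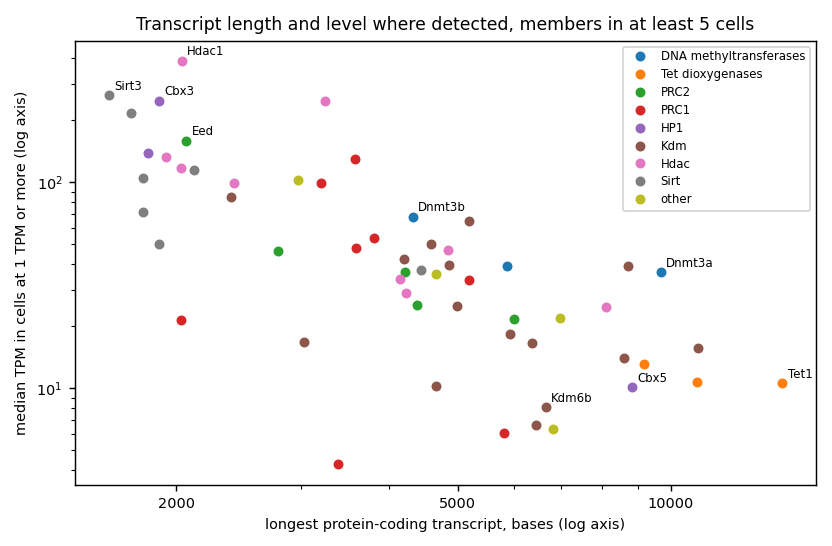
Median TPM in the cells with detection (y axis, log) against the longest coding transcript in bases (x axis, log) for the 57 members in at least 5 cells, coloured by family. Levels fall with length: Hdac1, Sirt3 and Cbx3 lie at the upper left, and Tet1 and Cbx5 at the lower right.

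Levels across cells were then set against the replication state. The S phase level of a cell was the mean log2(TPM + 1) of 28 replication genes such as Pcna and Mcm6, none of them a member, and ran from 1.14 to 7.90 (median 3.89). Of the 31 members in at least 20 cells, 6 had a Spearman rho of 0.3 or more with it (19.4%), against 8.44% of the 5784 genes of the table in as many cells. They were Dnmt1 (rho 0.47), Cbx5 (0.44), Ezh2 (0.43), Jarid2 (0.40), Dnmt3b (0.38) and Cbx3 (0.34). Below them came, among others, Hdac3 (0.26), Hdac2 (0.19) and Sirt5 (0.18). Dnmt3a, unlike its paralog, had a rho of 0.024. The lowest values belonged to Kdm5b (-0.39), Kdm6b (-0.295), Men1 (-0.16), Sirt7 (-0.16) and Hdac7 (-0.14); 1 member and 1.92% of all genes lay at -0.3 or below. The median member had a rho of 0.054, and the median gene 0.053. All these values are descriptions over 76 cells of 1 group, prepared with the same kits, without p-values.

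**Figure D4:**
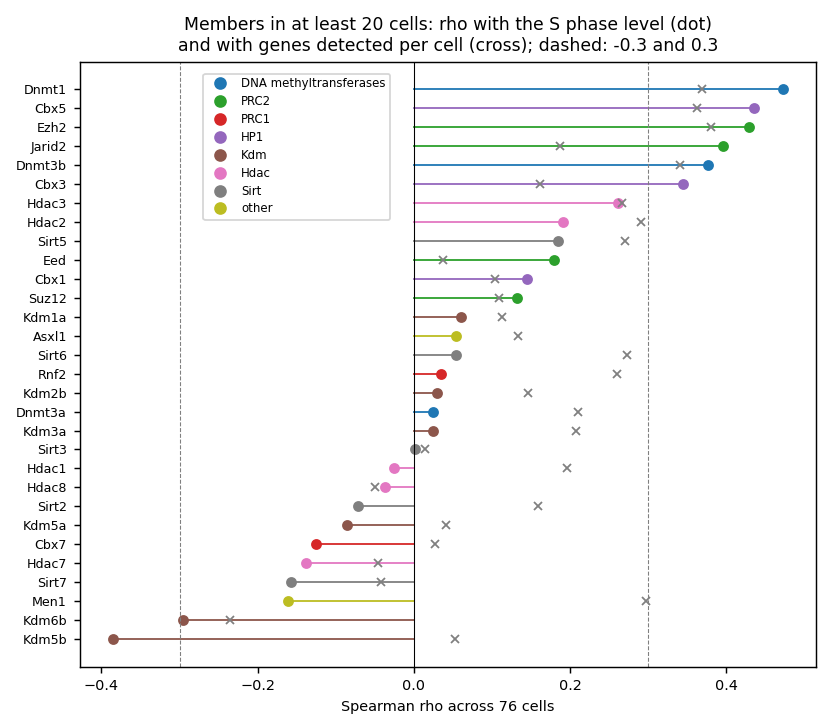
Spearman rho across 76 cells (x axis) of 30 members in at least 20 cells with the S phase level (dots, coloured by family) and with the number of genes detected (grey crosses). Dnmt1, Cbx5, Ezh2, Jarid2, Dnmt3b and Cbx3 lie right of the dashed line at 0.3 and Kdm5b left of that at -0.3.

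The S phase level itself moved with the number of genes detected (rho 0.46), as did Ezh2 (0.38), Dnmt1 (0.37), Cbx5 (0.36) and Dnmt3b (0.34). With genes detected regressed out, the rho with the S phase level was 0.37 for Dnmt1, 0.36 for Jarid2, 0.32 for Cbx5, 0.31 for Ezh2 and Cbx3, 0.26 for Dnmt3b and -0.46 for Kdm5b, and 5.05% of all genes reached 0.3. In title numbers 2 to 6 and 7 to 11, the values were 0.31 and 0.62 for Dnmt1, 0.31 and 0.56 for Cbx5, 0.35 and 0.54 for Ezh2, 0.32 and 0.43 for Jarid2, 0.47 and 0.35 for Dnmt3b, 0.26 and 0.40 for Cbx3 and -0.33 and -0.42 for Kdm5b. Of all genes, 10.6% reached 0.3 in title numbers 2 to 6 and 14.6% in 7 to 11. Setting values under 10 TPM to 0 brought Cbx5 to 0.25 and Dnmt3b to 0.29. In cells with at least 3500 genes Cbx3 had a rho of 0.27.

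**Figure D5:**
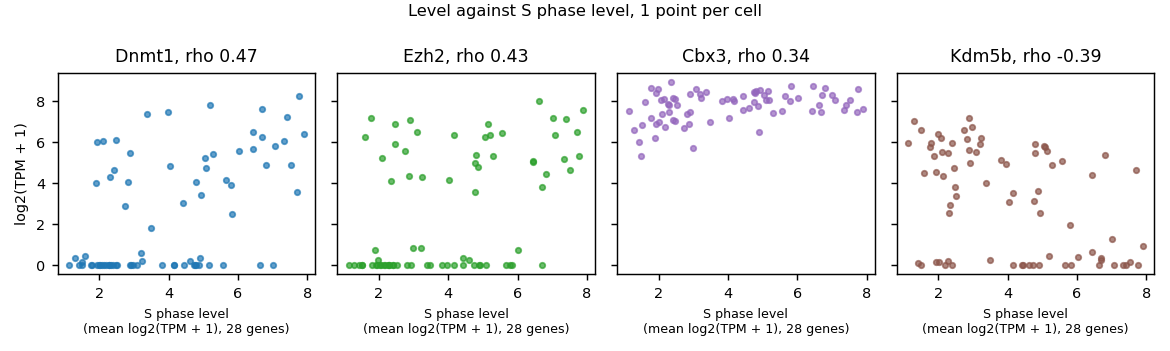
Level of Dnmt1, Ezh2, Cbx3 and Kdm5b (y axis, log2(TPM + 1)) against the S phase level (x axis, mean log2(TPM + 1) of 28 genes), with a point per cell. Dnmt1 and Ezh2 have cells at 0 along most of the axis, most densely at low S phase levels, Cbx3 has none at 0, and Kdm5b is mostly at or near 0 at the high end (rho 0.47, 0.43, 0.34 and -0.39).

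With the level of 25 G2 and M phase genes, 3 of the 31 members reached 0.3 (9.68%), Dnmt1 (0.43) and Cbx5 (0.37) among them, against 3.71% of all genes, and Ezh2 had a rho of 0.29. No member lay at -0.3 or below there (0.483% of all genes did). The S phase level moved with the G2 and M level across the cells (rho 0.40), so these values do not separate the phases. No member of the 31 reached 0.3 with the T lymphoid level (2.02% of all genes did) or the granulocyte level (1.26%), and none lay at -0.3 or below (1.76% and 0.603% of all genes). The highest there were Kdm3a (0.27) and Cbx3 (0.25) with T lymphoid genes and Cbx7 (0.28) with granulocyte genes. Among the 465 pairs of members, 7 had a rho of 0.3 or more (1.51%), near the 1.05% of all pairs of genes. Cbx5 with Dnmt1 (0.52) and Ezh2 with Jarid2 (0.41) were the highest, followed by Cbx5 with Ezh2 (0.34). Dnmt1 with Kdm6b (-0.34) and Eed with Rnf2 (-0.31) were among the lowest. Over the 3511 genes in at least 38 cells, those most like Dnmt1 were Tuba1b (0.54), Smc1a (0.53), Cdk1 (0.52), Cbx5 (0.52) and Gm6682 (0.51). For Ezh2 they were Mrps10 (0.53), Syncrip (0.49), Nasp (0.41), Mcm7 (0.40) and Dtymk (0.40).

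Because these 6 genes followed replication genes, their promoters were searched for the E2F site that many replication genes carry, as the letters TTTCCCGC or TTTGGCGC on either strand. Windows ran from 250 bases before to 50 after each RefSeq start site (GRCm38.p6), and 51 members had at least 1. The letters were found in Cbx3, Ezh2 and Dnmt1, that is 3 of the 6, in 1 of the 20 other members with a rho and a window (Suz12, rho 0.13) and in 5 of all 51, the last being Sirt4. They occur in 3.20% of the 10880 genes of the table with a window. The 6 genes were picked by their rho with the S phase level in these same cells. The share with the letters among all genes of the table picked in that way was not counted. Whether the letters are more frequent in genes that follow replication genes was therefore not tested, and 3 matches are too few to decide it. The 3 stretches are shown since they are those of the 6 genes that hold the letters, with the motif in capitals. The Cbx3 stretch is chr6:51470366-51470615 on the plus strand, the Ezh2 stretch chr6:47595020-47595280 on the minus strand and the Dnmt1 stretch chr9:20952574-20952603 on the minus strand, at 1 of its 3 start sites.
Cbx3: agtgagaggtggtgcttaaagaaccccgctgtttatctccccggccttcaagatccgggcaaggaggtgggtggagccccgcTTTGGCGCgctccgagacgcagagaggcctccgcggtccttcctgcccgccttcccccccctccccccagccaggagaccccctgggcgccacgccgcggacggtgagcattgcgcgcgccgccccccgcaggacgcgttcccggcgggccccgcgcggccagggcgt
Ezh2: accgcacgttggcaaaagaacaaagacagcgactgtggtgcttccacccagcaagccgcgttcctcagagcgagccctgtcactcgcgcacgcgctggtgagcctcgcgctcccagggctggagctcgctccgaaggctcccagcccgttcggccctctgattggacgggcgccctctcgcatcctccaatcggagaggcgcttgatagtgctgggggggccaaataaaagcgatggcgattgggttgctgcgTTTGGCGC
Dnmt1: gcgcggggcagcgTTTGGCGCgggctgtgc
The motif begins 168 bases before 1 of 2 start sites in Cbx3. It begins at base 4 in Ezh2 and base 34 in Dnmt1, with the start site as base 1. The Cbx3 and Dnmt1 stretches and most of the Ezh2 stretch lie within the RefSeq spans of these genes given above. A match describes letters in a window and shows no binding.

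Partner genes of the same complexes were taken from lists of 103 genes, of which 31 were in at least 38 cells (30.1%, against 23.1% of all genes) and 1, Asxl3, in no cell. Of 8 PRC2 partners, 4 were in at least 38 cells: Rbbp7, which binds histones, was in all 76 cells (median 448 TPM), Mtf2, a Polycomb-like subunit, in 68 (121 TPM) and Rbbp4 in 67 (67.6 TPM), and Lcor was in 40. The other Polycomb-like genes Phf1 and Phf19 were in 4 cells and 1 cell, and Aebp2 in 15. Of 14 PRC1 partners only Yaf2 (52 cells) passed 38 cells, with Pcgf6 (29) and L3mbtl2 and Pcgf5 (26 each) next. Among deubiquitinase partners, Bap1 was in 27 cells and Asxl2 and Hcfc1 in 25 each. Tdg (54), Mbd3 (52) and Mbd1 (39) led the list of genes related to DNA methylation. Trim28 (70), Nsd1 (41) and the row Suv420h2 (41) led the further lysine methyltransferases and their corepressor. Of the H3K4 complex, Dpy30 was in 74, Ash2l in 61 and Psip1 in 58 cells. Of 18 deacetylase corepressors 8 were in at least 38 cells, led by Ncor1 (67), Sin3b (66) and Sap30 (60). Hat1 (56) and Kat5 (46) were among the most widely detected acetyltransferase genes. Prmt1 (76), Wdr77 (52) and Prmt5 (51) led the list of arginine methyltransferases and a partner gene, Wdr77. Of 61 partners in at least 20 cells, 9 had a rho of 0.3 or more with the S phase level (14.8%, against 8.44% of all genes), highest in Uhrf1 (0.65), which brings Dnmt1 to replicating DNA, and the remodeller Hells (0.63).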

How the data were processed

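The authors deposited 1 table of TPM with a column for each of the 76 cells; each column sums to 1000000. The tools credited here come from the submitters' processing notes: StringTie 1.3.4, SAMtools 0.1.19, HISAT2 2.1.0, bcl2fastq, with mm10 as build. How they were chained, which annotation served and whether genes were filtered is not given in the sources used here. Depth is unknown, and 66.3% of all values are 0. Each column was matched to a cell by its title. Detection was set at 1 TPM, shares carry exact Clopper-Pearson 95% intervals, and the limit for 0 cells is 3 counts of 76. Correlations are Spearman's rho of log2(TPM + 1) across cells, for genes in at least 20 cells. The step was checked on simulated cells, with each gene shuffled on its own or reordered by the S phase level with noise. That check models no shared dependence on genes detected, so it does not speak to it. Older symbols and positions came from RefSeq (GRCm38.p6), transcript lengths from GENCODE M21. Genes named with values were members in at least 38 cells, the member of each family in most cells, members of the paralog pairs, the 10 highest and 5 lowest rho with the S phase level, members in no cell, reference members with no row, the 3 genes of each partner list in most cells and those in no cell, and the 5 rows most like Dnmt1 and Ezh2; any other was named after its values were seen. Some genes this rule takes are counted in the totals but not reported here by name. Members and lists were chosen with earlier results of these data known. Alternatives were detection above 0 or at 5 or 10 TPM, cells with at least 3500 genes, title numbers 2 to 6 or 7 to 11, Pearson correlation with pseudocounts of 1 and 0.1, regression on genes detected, and minimums of 5 and 38 cells; those for some combinations of genes were added after seeing the data. Python 3.11.15, pandas 2.3.3, numpy 2.4.6 and scipy 1.17.1 were used.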

Additional observations from a re-analysis of the deposited data

How the results depend on the processing

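No paired analysis was possible because all cells form 1 group. The number of members in at least 38 of 76 cells, or the same share of a smaller set, was 17 and became 10 in title numbers 7 to 11; it was 12 to 22 under the other settings. Members in no cell numbered 3 at 10 TPM (Hdac9, Hdac11 and Kdm4d) and 2 in title numbers 2 to 6, against 1. The number of members with an S phase rho of 0.3 or more was 6. It was 3 when 38 cells were required, since fewer genes then had a rho, and 4 to 8 otherwise. It was 8 in title numbers 7 to 11, where 14.6% of all genes reached 0.3, and 6 in 2 to 6, where 10.6% did. Under the other settings with a share over all genes, 5.05 to 10.2% did, against 8.44%. The median per cell (18 to 26), the share of cells with a complete PRC2 core (13.2 to 26.3%) and the share with Ezh2 above Ezh1 (43.4 to 59.5%) stayed within 1.5 times or the 95% interval. Of the other 18 paralog pairs, the share left its interval in 8 with values under 10 TPM set to 0 and in 6 when a margin of 2 times was required (pseudocount 1). At 10 TPM, Tet2 was then above Tet3 in 10.5% of cells (22.4% before), Kdm5c above Kdm5d in 6.58% (25%), Kdm1a above Kdm1b in 17.1% (28.9%) and Mll1 above Mll2 in 2.63% (14.5%). None of the 7 members with an S phase rho of at least 0.3 in size changed sign under the alternatives run; other correlations had none. Of the 61 detection shares, 20 left their interval when any value above 0 counted and 13 at 10 TPM. The depth behind TPM is unknown, so a gene at 0 cannot be told from one that was not captured. Of the 31 rhos, 13 moved by over 0.1 with genes detected regressed out, 13 in title numbers 2 to 6 and 10 in 7 to 11.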
